A study of Homo sapiens with 4 samples.

Results

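The loops described here are the 2307 chromatin loops on chromosomes 1 to 22 that stand in the loop list labelled SMC1 and have no counterpart in the loop list labelled CTCF. They were chosen by position from 27785 loops of the SMC1-labelled list (8.30%, 95% Wilson interval 7.98 to 8.63) set against 79406 loops of the CTCF-labelled list. A loop was counted as matched when 1 CTCF-labelled loop overlapped it at both anchors after the anchors were extended by 15 kb on each side. The remaining 25478 loops were matched and serve as the comparison. The share without a match depends on the tolerance. It was 31.0% without extension of the anchors and 4.92% with both lists extended by 15 kb. Both lists come from HiChIP, a chromosome conformation assay with a chromatin immunoprecipitation step, in HG00731, a human lymphoblastoid cell line (LCL), that is, B cells immortalised in culture. SMC1 HiChIP was fixed with formaldehyde and ethylene glycol bis(succinimidyl succinate) (FA-EGS) and CTCF HiChIP with formaldehyde (FA) alone, without any other treatment, and each target had 2 biological replicates. The targets thus also differ in fixation, and the replicates were pooled by the authors, so every loop has 1 value with no spread between replicates. For this reason no test was made. Intervals are 95% intervals that cover counting error only, and the number of chromosomes with the same order is given as a description.

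SMC1 is a subunit of cohesin, the motor that reels in DNA and so enlarges a loop. CTCF is a zinc finger protein that binds a directional DNA motif and halts cohesin, and the ends of extruded loops often carry CTCF motifs that point towards each other. Cohesin is also loaded and found away from CTCF, at active promoters and enhancers, where shorter contacts form. In B cells such contacts link the genes of lineage factors and receptor signalling to their regulatory DNA.

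The label of the list and the peaks at its anchors did not name the same target. MAPS, the loop caller, lists a pair of 5 kb bins only where at least 1 of them holds a peak of the sample it was given. A CTCF peak lay at 1 or both anchors of all 27785 SMC1-labelled loops, whereas 11 of these loops had no SMC1 peak at either anchor. Conversely, all 79406 CTCF-labelled loops had an SMC1 peak at 1 or both anchors, and 3654 of them had no CTCF peak. With chromosome X the SMC1-labelled list held 28012 loops and the CTCF-labelled list 80487. The loop totals that the study gives for its HiChIP targets are those of these lists with the labels exchanged. The peaks and the totals thus both go against the labels. With exchanged labels, the loops described here would be CTCF HiChIP loops without a counterpart in SMC1 HiChIP, and the fixation of the lists would be exchanged as well. The lists are named by their deposited labels throughout, and no loop is assigned to an antibody. The peak lists are taken as labelled. Among the unmatched loops, 2307 of 2307 carried a CTCF peak at 1 or both anchors and 2303 carried an SMC1 peak. The summed count of read pairs was 74044 in the unmatched loops, 9.45% of the 783375 read pairs of the SMC1-labelled list, and 2635261 in the CTCF-labelled list.

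The sequences under 3 of the unmatched loops with the most read pairs, under the loop with the highest observed over expected, and under a loop of 45 kb near TNFSF9 and CD70 show what the CTCF peaks at these anchors hold. The CTCF core motif was searched as CCANNAGNNGGC on both strands within whole CTCF peaks, a window chosen after a search around the summits had left few hits, and forward means that it reads so on the plus strand. Each line gives 60 bases of hg38, plus strand, 5′ to 3′, with the motif in capitals.
CACNB3 intron, left anchor, reverse, chr12:48814738-48814797: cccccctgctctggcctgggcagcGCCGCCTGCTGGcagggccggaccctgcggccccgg
PACS1 intron, left anchor, reverse, chr11:66222639-66222698: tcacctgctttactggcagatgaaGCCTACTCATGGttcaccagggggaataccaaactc
MS4A15 intron, right anchor, forward, chr11:60775504-60775563: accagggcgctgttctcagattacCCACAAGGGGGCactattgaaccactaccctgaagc
Near AKAP1, between coding genes, left anchor, forward, chr17:57131122-57131181: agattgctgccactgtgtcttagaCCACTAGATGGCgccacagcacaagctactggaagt
Near TNFSF9, between coding genes, left anchor, forward, chr19:6517023-6517082: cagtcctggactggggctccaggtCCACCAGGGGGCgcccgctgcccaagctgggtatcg
At CACNB3, PACS1 and MS4A15 the motif as searched points away from the partner anchor, and near AKAP1 and TNFSF9 it points towards it. In the PACS1 line the unmarked stretch tcaccaggggga differs from the searched pattern only at its first and last bases. This stretch reads forward, that is, towards the partner, so the direction at PACS1 is uncertain. These examples do not give the shares of the set. In the 810 unmatched loops with a motif on a single strand at 1 anchor only, it pointed towards the partner in 512 (63.2%, 59.8 to 66.5), against 84.6% (83.9 to 85.3) of 9816 such matched loops. In unmatched loops of 30 kb or less it did so in 191 of 366 (52.2%, 47.1 to 57.3), against 76.2% (72.3 to 79.8) of the matched ones, and in longer unmatched loops in 321 of 444 (72.3%, 67.96 to 76.3), against 85.0% (84.3 to 85.8). Of the 10 unmatched loops with the most read pairs, 6 had such a motif. As searched, it pointed away in all 6, the uncertain case at PACS1 included. Of the 10 with the most read pairs over 30 kb, 4 had one, which pointed towards the partner in 2 and away in 2. This count was added after the sequences had been seen.

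Pairs of motifs at both anchors were rare in the unmatched loops. Of the 2307 loops, 35 had a motif on a single strand at each anchor (1.52%, 1.09 to 2.10), against 1031 of the matched loops (4.05%, 3.81 to 4.30). Of these 35 pairs, 16 were convergent, with forward on the left and reverse on the right (45.7%, 30.5 to 61.8). Among the matched loops 742 of 1031 pairs were convergent (72.0%, 69.1 to 74.6). Tandem reverse pairs numbered 11 among the unmatched loops, tandem forward pairs 5 and divergent pairs 3. The search first set, within 50 bp on either side of the summits, left 3 unmatched pairs, of which 1 was convergent, and 102 matched pairs, of which 72 were convergent. The whole-peak values therefore come from a choice made after the data were seen. The motif stood in 15.4% of all 61417 CTCF peaks on chromosomes 1 to 22 and in 2.05% of windows of the same length 10 kb to the right. It stood in 12.6% (10.6 to 14.9) of the 936 CTCF peaks with the summit at anchors of unmatched loops alone, in 21.3% (20.6 to 21.96) of the 14523 at anchors of matched loops alone and in 26.7% (24.5 to 28.9) of the 1583 at anchors of both. The peaks of the first of these sets were also shorter, with a median length of 399.5 bp against 640 bp and 758 bp, so that less sequence was searched in them, and weaker, with a median -log10 q of 12.3 against 58.0 and 136. The part of length and strength in the motif shares was not tested. Hits at the rate of the shifted windows would be a larger part of the hits in the first set. Their part in the motif directions and convergent shares given above was not tested either.

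The convergent unmatched loop with the most read pairs over 30 kb joined an intron of ZC3H4, a zinc finger protein of transcription termination, to a site near CCDC9 on chromosome 19. It had 32 read pairs against 9.07 expected over a span of 170 kb, and the closest CTCF-labelled loop lay 55 kb away. A second one joined an intron of SLC12A3, the thiazide-sensitive sodium chloride cotransporter of the kidney, to an intron of NLRC5, the transactivator of MHC class I genes, with 24 read pairs against 9.37 expected over 180 kb. The motifs at the anchors of both loops are shown because they face each other.
ZC3H4 intron, left anchor, forward, chr19:47079462-47079521: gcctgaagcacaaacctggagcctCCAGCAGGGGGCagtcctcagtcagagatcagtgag
Near CCDC9, right anchor, reverse, chr19:47247546-47247605: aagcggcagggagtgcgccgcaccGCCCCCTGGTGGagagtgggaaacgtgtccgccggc
SLC12A3 intron, left anchor, forward, chr16:56867397-56867456: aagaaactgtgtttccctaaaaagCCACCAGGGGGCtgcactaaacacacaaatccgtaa
NLRC5 intron, right anchor, reverse, chr16:57045944-57046003: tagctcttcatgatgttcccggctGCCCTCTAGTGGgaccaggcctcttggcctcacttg

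Short loops made up a large share of the unmatched set. The span, taken between the starts of both anchors, had a median of 40 kb (35 to 45) in the unmatched loops and 135 kb (130 to 135) in the matched loops. It was lower in the unmatched loops on 22 of 22 chromosomes. Without extension of the anchors the medians were 110 kb in the unmatched and 135 kb in the matched loops. At the shortest span of 10 kb, 619 of 974 SMC1-labelled loops had no match (63.6%, 60.5 to 66.5). This share was 47.3% (42.8 to 51.9) at 15 kb, 31.3% (26.9 to 36.0) at 20 kb, 20.4% (16.6 to 24.7) at 25 kb and 14.3% (11.2 to 17.9) at 30 kb. From 65 to 100 kb it was 3.47% (2.998 to 4.003), and it was higher again, at 8.23% (7.01 to 9.64), among the 1689 longest loops, all over 400 kb. Loops of 30 kb or less, here called short, gave 1100 of the 2307 unmatched loops (47.7%, 45.6 to 49.7) and 1534 of the matched loops (6.02%, 5.74 to 6.32). The short class was set after the spans had been seen, and short and longer loops are described separately below. The CTCF-labelled list held 1174 loops of 10 kb, 1.48% (1.40 to 1.56) of its loops, against 3.51% (3.30 to 3.73) in the SMC1-labelled list. Since both lists start at a span of 10 kb, a CTCF-labelled loop could match a 10 kb loop at 28 of the 49 positions within the tolerance. A loop of 20 kb had 39 such positions and a loop of 40 kb or more had all 49. The part of this lower limit in the shares was not tested.

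**Figure D1:**
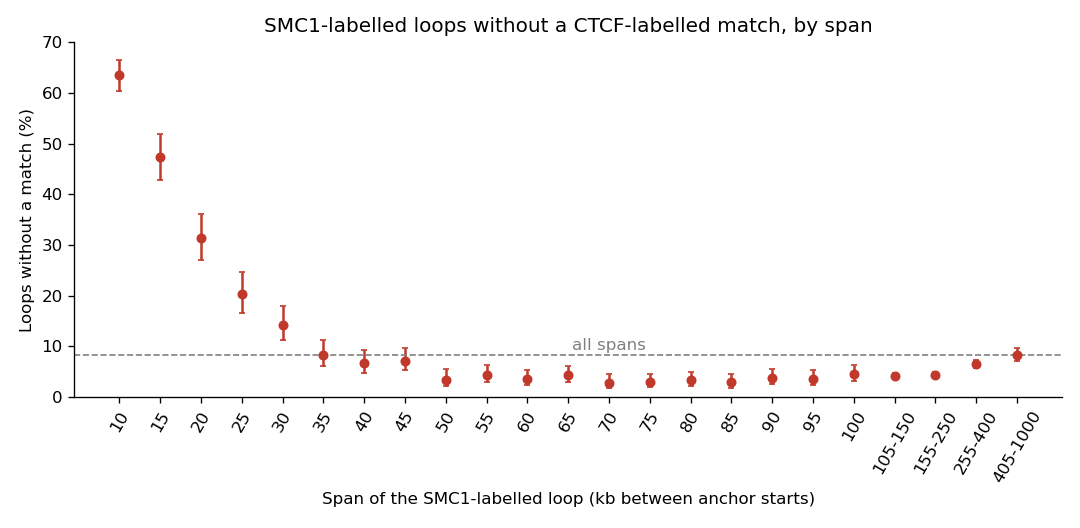
Share of SMC1-labelled loops without a CTCF-labelled match (percent, with 95% Wilson intervals) by the span of the loop in kb, in steps of 5 kb up to 100 kb and in ranges beyond, with the share over all spans as a dashed line. The share falls from 63.6% at 10 kb to 14.3% at 30 kb, lies below 9% from 35 kb on, and ends at 8.23% for the longest loops.

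The loops lay at all distances from the CTCF-labelled list. The distance of a loop to this list is the larger of its 2 anchor distances to the closest CTCF-labelled loop. Its median was 40 kb among the unmatched loops, with quartiles of 25 and 65 kb, and 304 loops lay over 100 kb away. The median was 45 kb for short and 35 kb for longer unmatched loops. Among the matched loops 19179 stood in the same bins as a CTCF-labelled loop. The threshold cuts a continuous distribution. The 427 unmatched loops just inside it, at 20 kb, had medians of 21 read pairs, an observed over expected of 3.18 and a span of 90 kb, and the 714 matched loops just outside, at 15 kb, had medians of 19.5 read pairs, 3.32 and 100 kb. Singletons, that is, loops of a single bin pair, made up 21.1% (17.5 to 25.2) and 8.68% (6.83 to 10.98) of these sets. CTCF peaks lay at both anchors of 52.9% (48.2 to 57.6) and 45.7% (42.04 to 49.3), and SMC1 peaks of 62.3% (57.6 to 66.8) and 54.2% (50.5 to 57.8).

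**Figure D2:**
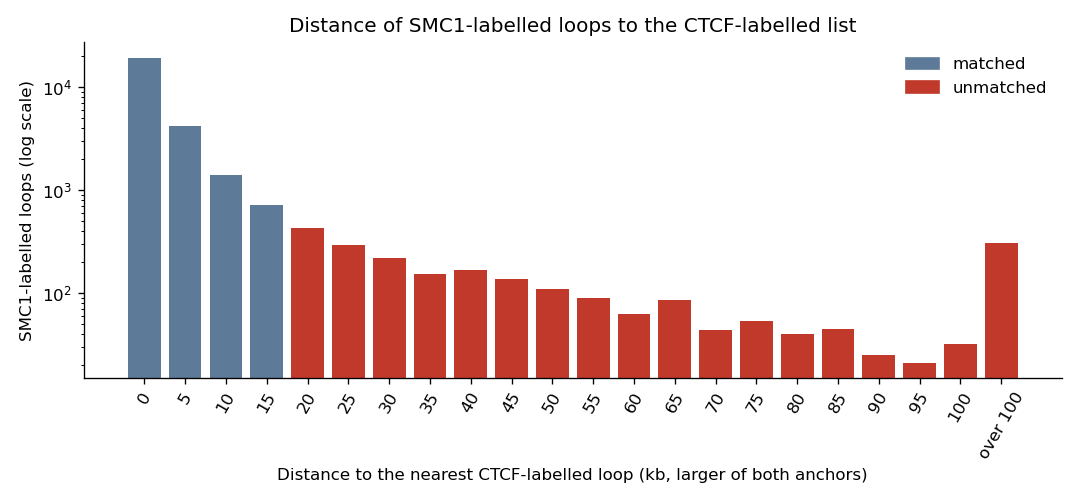
Number of SMC1-labelled loops (log scale) by the distance to the closest CTCF-labelled loop in kb, with matched loops in blue and unmatched loops in red. Counts go down from 19179 loops at 0 kb over 714 at 15 kb and 427 at 20 kb without a gap at the threshold, and 304 loops lie over 100 kb away.

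Most unmatched loops met the CTCF-labelled list at an anchor, although not as a pair. An anchor of 2204 of the 2307 loops was also the anchor of a CTCF-labelled loop (95.5%, 94.6 to 96.3). In 1047 loops both anchors were so used (45.4%, 43.4 to 47.4), but with other partners, and in 103 loops neither was. Of these 103 loops without a shared anchor, 89 were short. Within the short unmatched loops 416 of 1100 shared both anchors (37.8%), against 72.4% (70.1 to 74.6) of the short matched loops. The longer loops gave 52.3% (49.5 to 55.1) and 87.9% (87.5 to 88.3). In both classes the match itself favours a high share in the matched loops, since it requires a CTCF-labelled loop at or near both anchors. The contrast thus follows from the rule and is no separate result. The richer anchor of an unmatched loop had a median of 7 CTCF-labelled partners, and that of a matched loop 10. In 139 unmatched loops, all of them longer than 30 kb, a pair of CTCF-labelled loops joined the same anchors through a bin between them. That is 11.5% (9.84 to 13.4) of the longer unmatched loops, against 17.1% (16.7 to 17.6) of the longer matched ones. The 2307 loops used 3343 different anchors, and 1540 of these (46.1%) were also anchors of matched loops, so the loops are not independent of each other or of the comparison.

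The number of read pairs depended on the span class and on the tolerance of the match. In the unmatched loops the lowest had 12 read pairs, the median 25 (24 to 26) and the highest 258, against a median of 21 and a highest value of 426 in the matched loops. Without extension of the anchors the order turned, with a median of 19 in the unmatched and 23 in the matched loops. The MAPS regression expected a median of 8.42 read pairs (8.01 to 9.03) in the unmatched loops and 5.10 (5.04 to 5.16) in the matched loops. Observed over expected thus had a median of 2.99 (2.94 to 3.05) in the unmatched loops and 4.10 (4.07 to 4.12) in the matched loops, and it was lower in the unmatched loops on 22 of 22 chromosomes. Within the short loops this difference was nearly gone, with medians of 2.52 (2.48 to 2.54) and 2.54 (2.52 to 2.57) and with 40 (39 to 42) and 41 (40 to 43) read pairs, higher in the unmatched loops on 12 of 22 chromosomes. Among the longer loops the unmatched ones had fewer read pairs, with a median of 17 (17 to 18) against 21 (20 to 21), lower on 20 of 22 chromosomes. Their observed over expected was 3.75 (3.65 to 3.85) against 4.22 (4.199 to 4.25). The higher overall count of the unmatched loops thus turned around in the longer loops, while in the short loops the intervals overlapped.

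**Figure D3:**
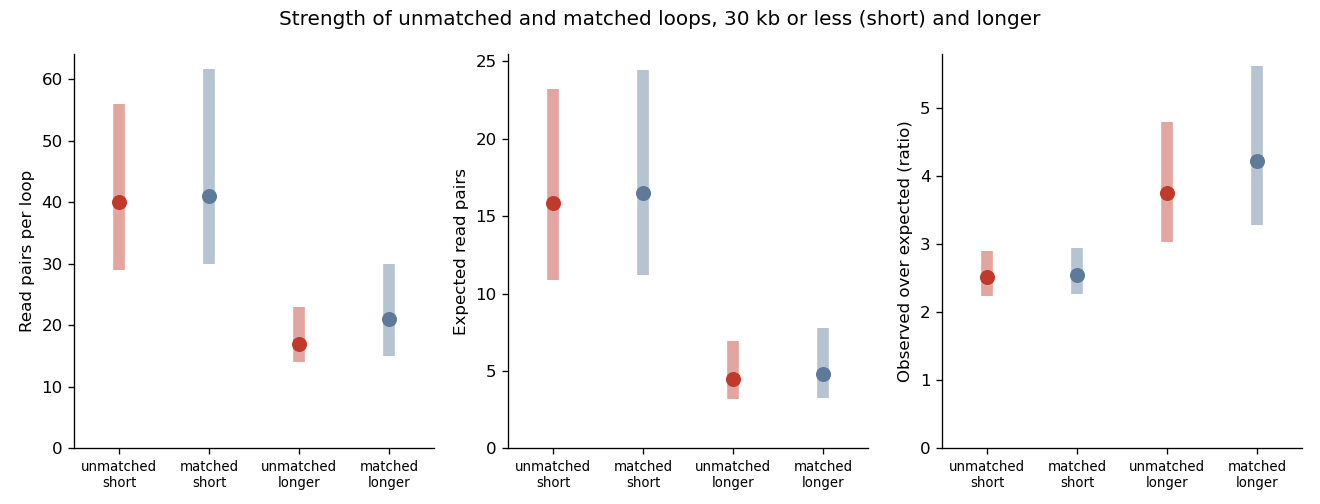
Medians (points) and quartiles (bars) of read pairs per loop, expected read pairs and observed over expected in unmatched (red) and matched (blue) loops of 30 kb or less (short) and longer. The short classes lie together at 40 and 41 read pairs, and the longer unmatched loops lie below the longer matched loops at 17 against 21.

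Among the longer loops the share without a match went down as the number of read pairs went up. Of the longer SMC1-labelled loops with 12 to 14 read pairs, 6.83% (6.16 to 7.57) were unmatched. This share was 5.73% (5.07 to 6.46) at 18 to 21 read pairs, 3.09% (2.61 to 3.67) at 28 to 39 and 1.16% (0.847 to 1.59) at 40 or more, that is, 38 of 3275 loops. Among the short loops the share went up and down without a steady order. It was 32.3% (18.6 to 49.9) at 12 to 14 read pairs and 48.3% (35.9 to 60.8) at 15 to 17. At 18 to 21 it was 38.7% (31.2 to 46.7), and at 22 to 27 it was 46.4% (40.9 to 52.0). At 28 to 39 read pairs 41.5% (38.0 to 45.2) were unmatched, and at 40 or more 41.1% (38.6 to 43.7). By observed over expected the longer loops went from 5.90% (4.79 to 7.26) unmatched between 2 and 2.5 to 1.58% (1.19 to 2.09) at 7 or more.

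**Figure D4:**
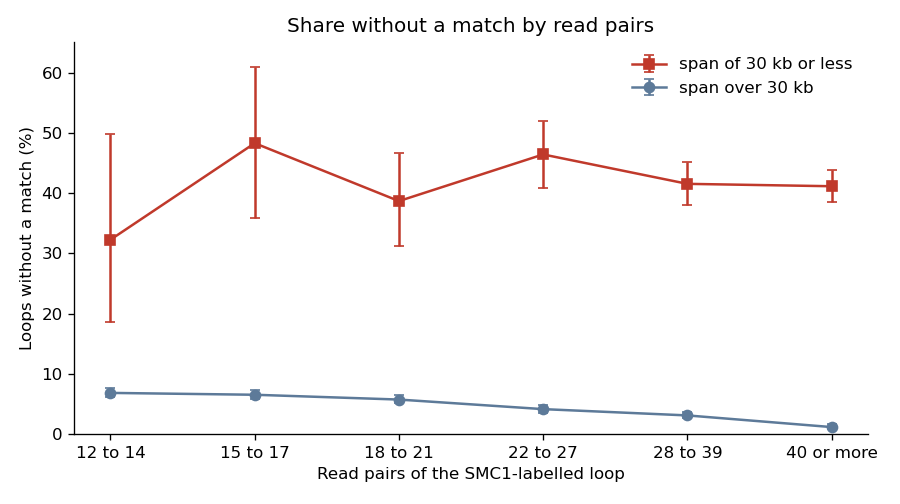
Share of SMC1-labelled loops without a match (percent, with 95% Wilson intervals) by the number of read pairs, for loops of 30 kb or less (red squares) and longer loops (blue circles). The share of the longer loops goes down from 6.83% to 1.16%, and that of the short loops is 41.1% in the class with the most read pairs.

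Single bin pairs were more frequent in the unmatched set. MAPS joins neighbouring bin pairs into clusters, and 660 unmatched loops were Singletons (28.6%, 26.8 to 30.5) against 7.47% (7.16 to 7.80) of the matched loops, with the same order on 22 of 22 chromosomes. BroadPeak clusters gave 5.64% (4.77 to 6.65) of the unmatched and 23.8% (23.2 to 24.3) of the matched loops. The median cluster held 2 bin pairs against 6. This difference was present in both span classes, with Singletons at 30.7% (28.1 to 33.5) against 12.3% (10.8 to 14.1) in short loops and at 26.7% (24.3 to 29.2) against 7.16% (6.84 to 7.496) in longer loops. Read pairs per loop and cluster size are both part of what MAPS uses to list a loop.

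Peaks at both anchors were less frequent in the unmatched than in the matched loops of 30 kb or less, while in the longer loops they were as frequent or more so when weak peaks were counted. A CTCF peak lay at both anchors of 1253 unmatched loops (54.3%, 52.3 to 56.3) and of 58.1% (57.5 to 58.8) of the matched loops. An SMC1 peak lay at both anchors of 1346 unmatched loops (58.3%, 56.3 to 60.3) against 68.1% (67.5 to 68.7). In short loops the CTCF shares were 45.2% (42.3 to 48.1) and 59.8% (57.4 to 62.3), and the SMC1 shares were 46.9% (43.98 to 49.9) and 69.0% (66.6 to 71.2). The order of these SMC1 shares was the same on 21 of 22 chromosomes. The short classes were not alike in span, as loops of 10 kb made up 56.3% of the unmatched and 23.1% of the matched ones. At a span of 10 kb the CTCF shares were 38.0% (34.2 to 41.9) and 47.3% (42.2 to 52.5). The SMC1 shares there were 40.1% (36.3 to 43.97) and 52.4% (47.2 to 57.5), so the differences were smaller. In the longer loops the CTCF share was 62.6% (59.9 to 65.3) against 58.0% (57.4 to 58.7), the other way round, and the SMC1 share was 68.8% (66.1 to 71.3) against 68.0% (67.4 to 68.6). After weighting to the read pairs and spans of the unmatched loops, the longer matched loops had 53.9% for CTCF and 64.2% for SMC1. Both lay below the shares of the longer unmatched loops. The stronger CTCF peak of a loop had a median -log10 q of 225 (219 to 231) in the unmatched and 211 (209 to 213) in the matched loops, higher on 12 of 22 chromosomes. By span class it was 260 (254 to 265) against 211 (209 to 213) in the longer loops, higher on 17 of 22 chromosomes, and 188 (179 to 196) against 196 (189.99 to 204) in the short loops, with overlapping intervals. For SMC1 the stronger peak went the other way, with 141.5 (136.7 to 146.1) against 169.7 (167.99 to 170.7), lower on 21 of 22 chromosomes. In the longer loops the SMC1 medians were closer, at 161.3 (156.6 to 167.5) against 170.5 (169.3 to 171.4), lower on 13 of 22 chromosomes. In the short loops they were 118.5 (111.1 to 125.2) against 142.9 (138.1 to 150.4), lower on 18 of 22. The weaker CTCF peak had a median of 3.51 (3.17 to 3.93) against 7.13 (6.70 to 7.58), where an anchor without a peak was set to 0. For SMC1 the weaker peak had a median of 7.79 (6.16 to 8.94) against 22.4 (21.6 to 23.2). The weaker peak was lower in the longer unmatched loops too, with a median of 5.58 (4.78 to 6.24) against 7.64 (7.10 to 8.29) and an upper quartile of 25.9 against 74.5 for CTCF, the median being lower on 18 of 22 chromosomes. For SMC1 it was 17.5 (14.9 to 19.8) against 23.1 (22.3 to 23.99). When only peaks with a -log10 q of at least 10 were counted, the share of all unmatched loops with a CTCF peak at both anchors was 18.8 percentage points below that of the matched loops. The fold enrichment of the stronger peak was close in both sets, with medians of 11.3 and 11.05 for CTCF and of 6.92 and 6.90 for SMC1.

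**Figure D5:**
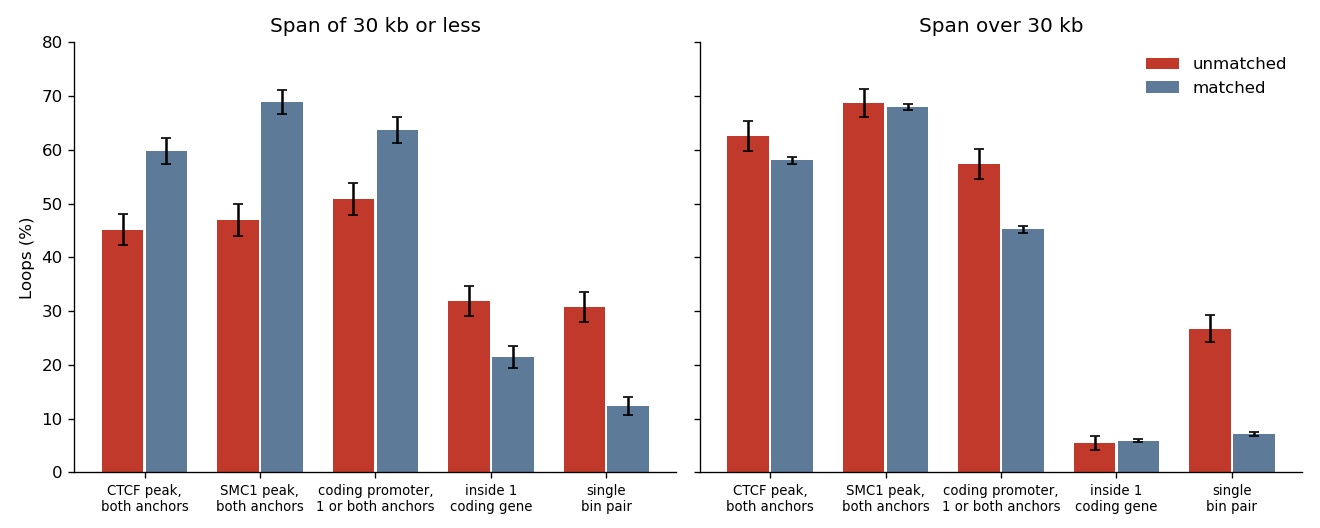
Share of unmatched (red) and matched (blue) loops (percent, with 95% Wilson intervals) with a CTCF peak at both anchors, an SMC1 peak at both anchors, a coding promoter at 1 or both anchors, both anchors inside 1 coding gene, and a cluster of a single bin pair, for loops of 30 kb or less (left) and longer loops (right). The CTCF and SMC1 bars of the short unmatched loops are at 45.2% and 46.9%, below the short matched loops at 59.8% and 69.0%, and in the longer loops the SMC1 bars are level.

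Promoters followed the span class in opposite directions. A start of a coding transcript lay within 1 kb of 1 or both anchors in 1253 unmatched loops (54.3%, 52.3 to 56.3) and in 46.3% (45.7 to 46.9) of the matched loops. In the longer loops the shares were 57.4% (54.6 to 60.2) and 45.2% (44.6 to 45.8), with the same order on 19 of 22 chromosomes. In the short loops they were 50.9% (48.0 to 53.9) and 63.8% (61.3 to 66.1), and the unmatched share was lower on 17 of 22 chromosomes. Promoters at both anchors were found in 336 unmatched loops (14.6%, 13.2 to 16.1) against 8.92% (8.58 to 9.28) of the matched loops. Here too the classes differed in direction, with 16.2% (14.3 to 18.4) against 8.32% (7.98 to 8.68) in the longer loops and 12.7% (10.9 to 14.8) against 18.3% (16.4 to 20.3) in the short loops. Both anchors inside the body of 1 coding gene were found in 350 short unmatched loops (31.8%, 29.1 to 34.6) and in 21.4% (19.4 to 23.5) of the short matched loops. In the longer loops these shares were 5.39% (4.25 to 6.81) and 5.91% (5.61 to 6.21). The GC content of the anchors had a median of 49.4% (49.1 to 49.8) in longer unmatched and 48.0% (47.9 to 48.1) in longer matched loops, and in short loops it was 48.5% (48.0 to 49.0) and 51.0% (50.6 to 51.4). The part of GC content in the promoter shares was not tested.

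The unmatched loop with the most read pairs lay between LBR, the lamin B receptor, and ENAH, a regulator of actin. It joined chr1:225465001-225470000 to chr1:225475001-225480000 with 258 read pairs against 96.1 expected, although a CTCF peak with a -log10 q of 733 lay at its right anchor and none at its left. An SMC1 peak lay at both anchors, with a -log10 q of 37.7 on the left and 430 on the right. Both anchors were used by CTCF-labelled loops, the closest of which was 30 kb away. All of the 10 unmatched loops with the most read pairs spanned 10 kb.

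The next of these loops differed in how far they stood above the expected number. At the promoter of RBM17, a splicing factor, 187 read pairs were counted against 38.7 expected, an observed over expected of 4.83. The loop from the promoter of LTBP2, a protein associated with microfibrils, had 170 read pairs against 79.6 expected, a ratio of 2.14 near the lower limit of the list.

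In 3 further loops of this group a strong CTCF peak lay at one anchor only. At CACNB3, a beta subunit of voltage-gated calcium channels, 169 read pairs against 74.4 expected joined starts of the gene at both anchors, with a CTCF peak of -log10 q 566 at the left anchor, the first of the sequences above. At PACS1, a sorting protein of the trans-Golgi network, 161 read pairs against 67.3 expected joined an intronic CTCF peak of -log10 q 780 to a start of the same gene. At QPCTL, a glutaminyl cyclase of the Golgi, and SNRPD2, a core spliceosome protein, 139 read pairs against 54.6 expected were counted from an anchor with a CTCF peak of -log10 q 302. In each of these 3 loops 1 anchor was shared with a CTCF-labelled loop.

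The others of the 10 had CTCF peaks at both anchors. At MS4A15, a gene of the membrane-spanning family of CD20, 152 read pairs against 54.4 expected joined intronic CTCF peaks with a -log10 q of 129 and 239. The loop from the promoters of RANBP10 and TSNAXIP1 also had 152 read pairs, against 57.1 expected. Between SAAL1 and MRGPRX3, 145 read pairs against 64.1 expected joined both promoters. Near TMSB10, which binds actin monomers, 140 read pairs against 51.0 expected were counted 20 kb from a CTCF-labelled loop, just inside the threshold.

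Loops over 30 kb had fewer read pairs. The highest was a loop between the promoters of TNPO2, a nuclear import receptor, and HOOK2, a microtubule linker protein, with 69 read pairs against 18.9 expected over 55 kb. The second joined PAXX, a factor of DNA end joining, to ABCA2, a lipid transporter, with 66 against 19.9 over 35 kb. Of the 8 that followed, 3 are described here, chosen after their values were seen. The other 5 lay at SRSF5 (2 loops), ABCA2 and SAPCD2, ARPC3 and GPN3, and NFKBIB and SIRT2, with 48 to 52 read pairs. From the promoter of SOCS1, an inhibitor of cytokine signalling, a loop within RMI2 had 55 read pairs against 18.2 over 40 kb. Near TNFSF9 and CD70, both ligands of the TNF family that costimulate T cells, 53 read pairs against 20.04 joined CTCF peaks with a -log10 q of 393 and 52.4. Around the start of PRKCB, a protein kinase C of B cell receptor signalling, 48 read pairs were counted against 17.97 expected.

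The highest ratios belonged to long loops with few read pairs. The loop from a site near AKAP1, a mitochondrial anchor of protein kinase A, to one near MSI2, an RNA-binding protein of stem cells, had 18 read pairs against 1.44 expected over 565 kb, a ratio of 12.5. The right anchor of the loop with 258 read pairs formed another unmatched loop over 460 kb to a site near LEFTY2, an inhibitor of Nodal signalling, with 34 against 2.89, a ratio of 11.8. A loop from near FOXL3 to near DNAAF5, which takes part in dynein assembly, had 20 against 1.82 and a ratio of 10.96. Of the 5 loops with the highest ratio, each had a CTCF peak at 1 anchor only.

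The longest unmatched loop spanned 995 kb from the promoter of NETO2 to a site near ABCC12, with 12 read pairs against 1.61 expected. The next, over 980 kb, ran from the same anchor near AKAP1 to a site near DYNLL2, a dynein light chain, with 15 against 1.82. Another, over 965 kb, ended at the promoter of NHLRC1, the ubiquitin ligase malin, with 12 against 2.19.

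Among loops with promoters at both anchors, several joined neighbouring genes over 10 to 20 kb. The promoters of EML3, a microtubule-associated protein, and MTA2, a subunit of the NuRD complex, formed a loop of 126 read pairs against 43.9 to a second start of EML3 and that of ROM1. From this second anchor another loop of 117 against 46.8 reached B3GAT3, an enzyme of glycosaminoglycan synthesis. MAZ, a zinc finger factor, was joined to PAGR1, PRRT2 and MVP with 112 against 42.8. TRAPPC5, of vesicle transport, was joined to FCER2, the low-affinity IgE receptor CD23 of B cells, with 107 against 35.6 over 20 kb. TGFB1 was joined to B9D2, a protein of the primary cilium, with 101 against 45.6, and RPS16, of the small ribosomal subunit, to PLEKHG2 with 99 against 44.2. In the TRAPPC5 and FCER2 loop CTCF peaks lay at both anchors, with a -log10 q of 191 and 10.2.

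The genes of B cells were looked up at the anchors as lists. Over all 19103 coding genes on chromosomes 1 to 22, 1092 had a start at an anchor of an unmatched loop (5.72%) and 4542 at an anchor of a matched loop (23.8%). B cell receptor signalling genes had 7 of 20 at unmatched anchors and 15 of 20 at matched anchors. B cell transcription factors had 5 of 23 and 18 of 23. Genes of B cell activation and costimulation had 3 of 18 and 10 of 18, NF-kappaB subunits and feedback genes 2 of 15 and 5 of 15, and ribosomal protein genes 10 of 80 and 30 of 80. HLA class II genes had 0 of 13 at unmatched anchors, cohesin and CTCF factors 1 of 15, which was PDS5A, a cohesin regulator, and lineage factors of other tissues 1 of 24, which was FOXA2, a factor of endoderm. At matched anchors these 3 lists had 2 of 13, 4 of 15 and 3 of 24. The matched loops used 24140 different anchors against 3343 of the unmatched loops, so the counts come from sets of unequal size and are not compared.

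The single genes of these lists differed in how many unmatched loops they held. RUNX3, a Runt factor of lymphocytes, had 7, with 16 to 85 read pairs. The strongest joined its start at chr1:24960001-24965000 to a site 10 kb away inside the gene, with 85 read pairs against 31.5 expected, and both targets had peaks at both anchors. PLCG2, the phospholipase C of B cell receptor signalling, also had 7, with 12 to 40 read pairs, all but 1 ending in the same bin at chr16:81820001-81825000. BLK, a Src family kinase of B cells, had 3 with 28 to 89 read pairs. CD86, a costimulatory ligand, had 2 with 41 and 44, and INPP5D, the lipid phosphatase SHIP1, had 2 with 24 and 32. IRF4, a factor of plasma cell differentiation, had 1 with 15 read pairs against 4.28, 100 kb from the closest CTCF-labelled loop.

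Of the listed genes, some stood at anchors of unmatched loops alone. BCL6, the repressor of germinal centre B cells, formed an unmatched loop over 175 kb with 15 read pairs against 3.08 and another over 400 kb with 13 against 1.98, which was 425 kb away from the CTCF-labelled list. TNFRSF17, the receptor BCMA of plasma cells, had 1 loop over 15 kb with 74 against 25.7. BCL10, an adaptor of antigen receptor signalling, had 1 over 20 kb with 46 against 17.5. ELF1, an ETS factor, had 1 with 21 against 4.68. NFKBIB, an inhibitor of NF-kappaB, had 2 with 52 and 67 read pairs.

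Several coding genes held a group of unmatched loops within their body. PACSIN2, a membrane-bending protein of endocytosis, and CDK14, a cyclin-dependent kinase, held 5 each, beside 6 and 14 matched ones. STX2, a syntaxin of membrane fusion, held 4 with up to 119 read pairs, beside 1 matched loop. RUNX3, SAMHD1, a nucleotide hydrolase that restricts retroviruses, and AVEN, an inhibitor of apoptosis, held 4 each and no matched loop within the body. The same was true of ATP9B, PRKCZ and GUCY2C. A start of RUNX3 did lie at an anchor of a matched loop that was not enclosed by the gene.

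When unmatched loops with overlapping spans were chained, they fell into 930 loci, of which 454 held a single loop and 118 held 5 or more. The locus with the most, chr19:18430001-18930000, held 23 unmatched loops beside 33 matched ones, with 12 to 135 read pairs and starts of SSBP4, ISYNA1, KXD1, COPE and 4 other genes at their anchors. A locus of 18 on chromosome 12 held starts of SELPLG, the P-selectin ligand PSGL-1 of leukocytes, and SSH1, a phosphatase of cofilin. The locus of the loop with 258 read pairs on chromosome 1 held 17 unmatched loops with a median of 17 read pairs, and so did one on chromosome 5 around NNT and PAIP1 with a median of 28. A further one on chromosome 8 also held 17. A locus on chromosome 14 around LTBP2 and YLPM1, outside the 5 largest and chosen after its values were seen, held 16 unmatched loops and 1 matched loop.

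Unmatched loops were found on every autosome. The share without a match went from 6.09% (4.76 to 7.76) on chromosome 20 to 12.0% (8.03 to 17.4) on chromosome 21, where it rests on 22 of 184 loops. It was 7.86% (6.99 to 8.83) on chromosome 1 and 8.34% (7.33 to 9.48) on the gene-rich chromosome 19. The share was higher in short than in longer loops on 22 of 22 chromosomes.

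Of the 5 unmatched loops farthest from the CTCF-labelled list, 4 were short. On chromosome 8 a loop of 15 kb near ZNF596 was 4775 kb from the closest CTCF-labelled loop, with 22 read pairs against 4.37 and a CTCF peak of -log10 q 444 at its left anchor. On chromosome 14 a loop of 10 kb within MDGA2, a neuronal adhesion protein, was 1120 kb away, with 25 against 7.02. A pair of loops sharing an anchor within ADAMTS9, a metalloprotease, was 495 and 480 kb away, with 13 and 22 read pairs. In these 4 loops neither anchor was used by a CTCF-labelled loop.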

How the data were processed

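Reads were mapped by the authors to hg38 with BWA-MEM, the 2 replicates of each target were pooled, and MACS3 3.0.1 was run without an input sample and with a threshold of 0.01 on the q-value. The deposited peak lists hold the fold enrichment, a ratio of the summit to its local background, and the -log10 q-value. Loops were called by the authors with MAPS on 5 kb bins. The deposited lists hold the raw count of read pairs, the expected number of the MAPS regression (a score without a fixed range), its false discovery rate, a q-value, and the -log10 P and size of the cluster. Neither of these significance values was used. No depth per replicate is part of the lists used here.

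Peaks, promoters (GENCODE release 44, coding starts within 1 kb) and motifs were placed at the anchors with an overlap of at least 1 bp. Shares carry Wilson intervals and medians rank intervals at 95%. The steps were tested on simulated data. Python 3.11.15, pandas 2.3.3, SciPy 1.17.1 and pysam 0.24.0 were used. The members, the gene lists and the loops to be named (those with the most read pairs, highest ratio or longest span, overall and with promoters at both anchors, the 5 largest loci, and those just inside the threshold) were chosen with earlier results of these data known. The strongest loops over 30 kb, the loops farthest from the CTCF-labelled list, genes with several loops in their body and the loops shown for their motif pairs were added after their values were seen. Alternatives were other tolerances, peak and promoter definitions, motif windows, chromosomes, and matched loops weighted to the unmatched.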

Additional observations from a re-analysis of the deposited data

How the results depend on the processing

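Values are unmatched minus matched loops, in percentage points for shares, unless a share of one set is named. Without extension of the anchors, 31.0% of the loops were unmatched and 98.6% of these touched a CTCF-labelled loop. The median read pairs then turned to -4, observed over expected was -0.83, span -25 kb, CTCF peaks at both anchors -19.3 and SMC1 peaks -24.0. With 10 kb, 10.9% were unmatched, with differences of 2 read pairs, -75 kb and -6.24 for CTCF peaks. With both lists extended by 15 kb, 4.92% were unmatched and 93.4% of these touched the other list, and the differences were -105 kb, 4.17 for promoters and 30.8 for convergent pairs, which changed sign on 1 unmatched pair. Among loops with at least the median of 22 read pairs, 9.64% were unmatched and 94.6% touched, with -1.22 for observed over expected, -80 kb, -14.3 for CTCF peaks, -20.3 for SMC1 peaks and 2.35 for promoters. With matched loops weighted to the read pairs and spans of the unmatched, the differences were 0 read pairs, -0.13, -5 kb, -0.29 for CTCF peaks, -5.55 for SMC1 peaks and 1.64 for promoters. With peaks of a -log10 q of at least 10 they were -18.8 for CTCF and -13.4 for SMC1, and with the SMC1 summit inside the anchor -5.43. Convergent pairs were varied from the search within 50 bp of the summits, where the difference was -37.3 on 3 unmatched pairs. The degenerate motif gave -80.6 on 1 unmatched pair, the whole peaks, added after the data were seen, gave -26.3, and 97.2% of the loops touched the other list after an extension by 15 kb.

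In loops over 30 kb, a class chosen after the data were seen, the differences were -4 read pairs, -0.47, 4.60 for CTCF peaks, 0.74 for SMC1 peaks and 12.2 for promoters. In loops of 30 kb or less they were -1 read pair, -0.023, -14.7, -22.1 and -12.8, and -100 for convergent pairs, which rests on 1 pair in each set. CTCF peaks and promoters thus differed in direction between the span classes. SMC1 peaks were lower in the short loops and level in the longer ones, where the intervals overlapped. Read pairs had the opposite sign to all loops in both, by 1 read pair with overlapping intervals in the short ones. Of 74 values, 29 moved by less than their counting interval, 39 moved by more and 6 reversed. With the convergent pairs on 1 unmatched pair, which are among the 39, 7 changed sign. The cause was not tested.

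No paired analysis was possible because the lists pool both replicates, and for the same reason leaving out a replicate was not run. The counting intervals take loops as independent, although 46.1% of the anchors of unmatched loops also serve matched loops, and they do not cover the spread between replicates.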

Other observations

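On chromosome X, which stood outside the comparison, 10 of 227 SMC1-labelled loops had no match (4.41%, 95% Wilson interval 2.41 to 7.92), and 4 of the 10 were short. When the matched loops were weighted to the same classes of read pairs and span, 53.9% of the longer ones had a CTCF peak at both anchors, against 62.6% of the longer unmatched loops. For a coding promoter at 1 or both anchors the weighted share was 42.9% against 57.4%. For an SMC1 peak at both anchors of short loops it was 63.5% against 46.9%, and for a CTCF peak 55.4% against 45.2%. For a coding promoter in short loops it was 63.4% against 50.9%. For an SMC1 peak at both anchors of longer loops, where the shares were level without the weights, the weighted share was 64.2% against 68.8%. The other 5 differences had the same direction as without the weights.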
